A study of Homo sapiens with 8 samples.

Results

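The levels of 10 mRNAs of the actin and tubulin cytoskeleton were followed in HEK293T, an established human line of embryonic kidney origin. They are the 2 cytoplasmic actins ACTB and ACTG1, the actin-binding proteins PFN1, CFL1 and TAGLN2, the alpha-tubulins TUBA1A, TUBA1B and TUBA1C, and the beta-tubulins TUBB and TUBB4B. The members were every row of the deposited transcript table whose RefSeq accession belongs to one of these symbols: 75 of 53216 rows, holding 26 accessions, for 10 of 25695 gene symbols. Values are FPKM, a fragment count divided by transcript length and by library size, and a gene's value is the sum over its rows. The labels give 3 groups of untreated cells: 2 libraries of wild-type (Wt) RNA enriched with RiboMinus, 3 of Wt RNA after NAD-Capture, and 3 of NAD-Capture RNA from cells labelled DXO-KO. The groups with and without NAD-Capture also differ in the library kit (SMARTer low-input against TruSeq), so capture and kit cannot be told apart. A capture reaction without the cyclase is named in the protocol and was not analysed here. Neither the position of the DXO edit nor whether the line is 1 clone is given in the sources used here, and nothing says that replicates came from separate cultures, so p-values may measure technical spread only.

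Actin monomers assemble into filaments that give cells their shape and move them, and profilin and cofilin load and sever those filaments. Alpha- and beta-tubulin pair into dimers that assemble into microtubules, the tracks of transport and the spindle. Because these mRNAs are made in nearly all cells at high levels, several serve as loading references. NAD can stand at the 5′ end of an RNA in place of the usual cap when a polymerase starts a transcript with NAD instead of ATP, and DXO removes such ends. NAD-Capture attaches biotin to them for retention on beads.

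Since NAD is taken up where a transcript starts with A, the annotated start base of the members is shown first. RefSeq (GRCh38.p14) gave 14 start windows for 9 of the 10 members. The start base was A in 8 of the 14 windows (57.1%), against 44.4% of 35116 windows of all genes. Each line below runs 5′ to 3′ from 40 bases before the start base to 9 after it, with the start base in capitals and, where present, the letters TATAA in capitals.
ACTG1, chr17:81512790-81512839, minus strand: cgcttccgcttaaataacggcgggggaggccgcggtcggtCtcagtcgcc
PFN1, chr17:4948521-4948570, minus strand: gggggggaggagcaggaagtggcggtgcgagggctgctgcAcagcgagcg
CFL1, chr11:65858171-65858220, minus strand: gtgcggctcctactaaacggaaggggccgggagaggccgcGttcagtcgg
TUBA1A, chr12:49189071-49189120, minus strand: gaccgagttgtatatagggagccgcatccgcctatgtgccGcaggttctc
TUBA1B, chr12:49131386-49131435, minus strand: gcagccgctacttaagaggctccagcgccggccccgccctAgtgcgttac
TUBA1C, the most downstream of 3 starts, chr12:49265042-49265091, plus strand: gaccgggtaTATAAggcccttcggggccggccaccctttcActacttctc
TUBB4B, chr9:137241247-137241296, plus strand: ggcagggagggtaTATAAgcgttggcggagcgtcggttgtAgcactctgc

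PFN1, TUBA1B and TUBB4B, with 1 annotated start each, begin with A, whereas ACTG1 begins with C and CFL1 and TUBA1A with G. TUBA1C begins with A at each of its 3 starts, TUBB with C or A, and TAGLN2 with A, G or C, while ACTB had no window. In the Wt comparison below, TUBB4B, TUBA1C, TUBB, CFL1 and ACTB fell after capture, and the other members did not pass its test. Whether the start base goes with the change was not tested. These bases are annotation: the libraries do not locate 5′ ends. Motifs were searched on both strands of the full RefSeq start windows, of which the lines above are a part. TATAAA was in 0 of the 14 member windows, against 11.5% of all windows. The shorter TATAA, searched after the longer form gave no match and overlapping it by construction, was in 2 windows, TUBA1C and TUBB4B, against 20.4%. CCAAT was in 8 windows of 6 members, against 34.6%. All 3 TUBA1C windows are among the 8, and those of its starts 1 and 2 overlap and hold the same CCAAT site. The CArG box, bound by serum response factor, was in 1 member window, that of ACTG1, and in 1.29% of all windows. It lies 94 bases before the ACTG1 start and is in capitals in the stretch chr17:81512864-81512913, minus strand.
ACTG1: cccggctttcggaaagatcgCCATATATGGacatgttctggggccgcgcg

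Depth differed sharply between the kinds of library. Read from the steps between low values, the RiboMinus libraries held the equivalent of 10669306 and 8725088 fragments and the 6 NAD-Capture libraries between 80492 and 803590, so the same FPKM rests on far fewer fragments after capture. These figures are approximate: the fit to whole fragments, within 4%, held for 70.3% to 73.1% of the values used. HEK293T markers were at or above 1 FPKM for 7 or 8 of 8 in every library, and summed to 175 to 452 FPKM. VIM alone was 321 of the 399 FPKM in RiboMinus replicate 1, and PAX2 was 0.083 and 0.20 FPKM in the RiboMinus libraries. Of other lineages, the 3 blood markers summed to 0 in 7 libraries and to 0.93 in the other, the 2 liver markers to 0 to 14.2, the 3 fibroblast markers to 0 to 10.1 and the 3 muscle markers to 0 to 12.4. All 3 muscle markers also reached 1 FPKM in Wt NAD-Capture replicates 1 and 3 and DXO-KO-labelled replicate 1. After capture, 1 fragment on 1 kb was worth 1.24 to 12.4 FPKM, so passing 1 FPKM says little there. DXO had 11.2 and 14.3 FPKM with RiboMinus. It had 33.2, 17.2 and 27.1 after Wt NAD-Capture, and 128, 61.6 and 71.7 under the DXO-KO label. The label is therefore not matched by a lower level of DXO RNA: between the NAD-Capture groups the log2 difference was 1.69 ± 0.39 (SE; limma adjusted p = 0.114), with every value higher under the DXO-KO label. Between these groups of bulk RNA, fewer cells holding an mRNA and less of it per cell cannot be told apart.

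In Wt cells, 5 of the 10 members were lower after NAD-Capture than in RiboMinus RNA, and none was higher. The 5 were ACTB, CFL1, TUBA1C, TUBB and TUBB4B, with mean FPKM between 0.404 and 0.595 times the RiboMinus mean. Among all 16859 genes tested, 24.5% were called, 16.5% higher and 7.94% lower. The members' median log2 difference was -0.75, against 0.20 for all genes tested. Against genes with a mean of at least 10 FPKM the contrast was smaller: their median was -0.34, with 7 of the 10 members below it. The ranges of the groups did not overlap, with NAD-Capture below, for 7 members, against 27% of all genes. Differences here are on the log2(FPKM + 1) scale, and a gene was called at a limma adjusted p below 0.05 over all genes with a mean of at least 1 FPKM, which all 10 members passed.

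Of the 2 actins, near-identical proteins, ACTB fell and ACTG1 did not pass the test; whether their changes differ was not tested. ACTB was 1064 and 1085 FPKM in RiboMinus, against 518, 576 and 371 in Wt NAD-Capture. The capture values all lay below the RiboMinus values, and the difference passed the test (log2 -1.16 ± 0.25 SE, limma adjusted p = 0.0260). ACTG1 was 1310 and 1332 FPKM in RiboMinus, against 1500, 1463 and 1025 in Wt NAD-Capture. Its groups overlapped, with a log2 difference of -0.01 ± 0.25 (SE; limma adjusted p = 0.974). ACTG1 had the highest mean of the 10 members in all 3 groups, at 1321 ± 15.4 FPKM (SD, n = 2), 1329 ± 264 (SD, n = 3) and 1342 ± 367 (SD, n = 3) in RiboMinus, Wt NAD-Capture and DXO-KO-labelled NAD-Capture. In RiboMinus the order by mean was ACTG1, ACTB, TUBA1B, TUBB, CFL1, TUBB4B, TUBA1C, PFN1, TAGLN2 and TUBA1A, and no neighbouring ranges overlapped. In Wt NAD-Capture it was ACTG1, TUBA1B, ACTB, TUBB, PFN1, TUBB4B, CFL1, TUBA1C, TAGLN2 and TUBA1A, where TUBA1B with ACTB, ACTB with TUBB, and TUBB4B with CFL1 overlapped. Under the DXO-KO label the order was ACTG1, ACTB, TUBA1B, TUBB, CFL1, TUBB4B, PFN1, TUBA1C, TAGLN2 and TUBA1A, and every neighbouring pair from ACTB to TAGLN2 overlapped. As a share of the FPKM of the 2 actins, ACTB made up 44.8% and 44.9% with RiboMinus, then 25.7%, 28.3% and 26.6% after Wt NAD-Capture, and 30.6%, 30.8% and 34.2% under the DXO-KO label. These shares do not depend on how a library is scaled, and were not tested.

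**Figure D1:**
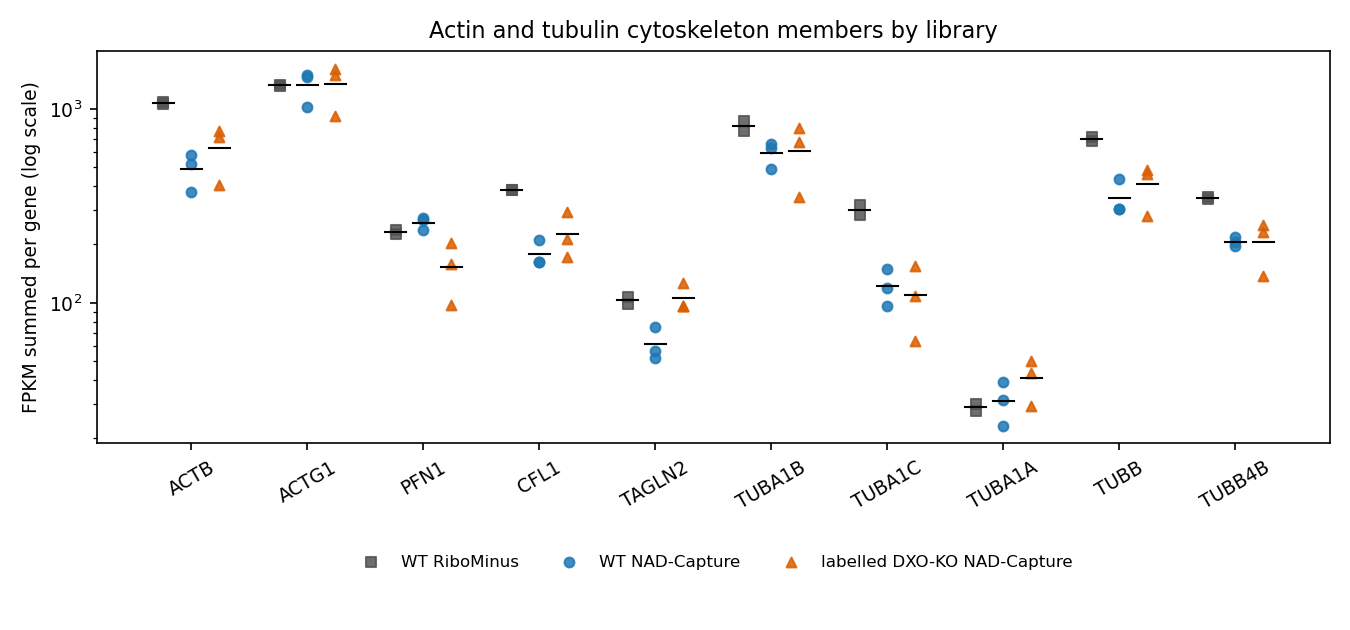
FPKM summed per gene (log scale) for the 10 members, with 1 point per library and a black bar at each group's mean; squares are WT RiboMinus, circles WT NAD-Capture, triangles NAD-Capture labelled DXO-KO. ACTB, CFL1, TUBA1C, TUBB and TUBB4B lie lower in both NAD-Capture groups than in RiboMinus, while ACTG1 overlaps across all 3.

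Of the 3 actin-binding members, CFL1 fell and PFN1 and TAGLN2 did not pass the test. CFL1, the non-muscle cofilin that severs filaments, was 382.4 and 382.3 FPKM in RiboMinus, against 163, 212 and 163 in Wt NAD-Capture (log2 -1.10 ± 0.20 SE, limma adjusted p = 0.0161). PFN1, profilin, which supplies actin monomers to growing ends, was 238 and 226 FPKM in RiboMinus, against 267, 274 and 236 in Wt NAD-Capture. Its groups overlapped, with a log2 difference of 0.16 ± 0.17 (SE; limma adjusted p = 0.529). TAGLN2, transgelin 2, which binds actin filaments, was 108 and 98.9 FPKM in RiboMinus, against 51.9, 75.3 and 56.7 in Wt NAD-Capture. Its groups did not overlap, but the log2 difference of -0.76 ± 0.22 (SE) missed the threshold (limma adjusted p = 0.0625). With GENCODE lengths, the TAGLN2 values after capture rest on the equivalent of 5.1, 6.3 and 11.3 fragments, against 1613 and 1212 in RiboMinus. They also depend on the transcript to which TAGLN2 was assigned. With length not divided out, the difference was -1.98 and passed the test (limma adjusted p = 0.00774). That difference and the fragment figures hold only if the deposited FPKM used the GENCODE length, as described with its isoforms.

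Among the alpha-tubulins, the minor TUBA1C fell and the major TUBA1B did not pass the test. TUBA1C was 321 and 283 FPKM in RiboMinus, against 149, 119.9 and 96.2 in Wt NAD-Capture, the largest decrease among the 10 members (log2 -1.32 ± 0.24 SE, limma adjusted p = 0.0166). TUBA1B was 866 and 772 FPKM in RiboMinus, against 630.3, 659.8 and 488 in Wt NAD-Capture, with no overlap (log2 -0.48 ± 0.22 SE, limma adjusted p = 0.177). TUBA1A, known best from developing neurons, was 30.3 and 27.6 FPKM in RiboMinus, against 39.1, 31.5 and 23.3 in Wt NAD-Capture. It had the lowest mean of the members in every group, and its groups overlapped (log2 0.08 ± 0.27 SE, limma adjusted p = 0.839). TUBA1C made up 26.4% and 26.1% of the FPKM of these 3 genes with RiboMinus, then 18.2%, 14.8% and 15.8% after Wt NAD-Capture, and 14.3%, 13.1% and 15.6% under the DXO-KO label. TUBA1B made up 71.2% and 71.3% with RiboMinus, then 77.0%, 81.3% and 80.3% after Wt NAD-Capture, and between 79.0% and 80.9% under the DXO-KO label. Alpha-tubulin genes are close in sequence and have processed pseudogenes, and how the counting divided shared reads is not given in the sources used here, so these splits are uncertain.

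Both beta-tubulins fell. TUBB, the main beta-tubulin of dividing cells, was 717 and 680.2 FPKM in RiboMinus, against 436, 304.3 and 304.5 in Wt NAD-Capture (log2 -1.02 ± 0.23 SE, limma adjusted p = 0.0308). TUBB4B was 350.5 and 344 FPKM in RiboMinus, against 217, 206 and 196 in Wt NAD-Capture (log2 -0.75 ± 0.16 SE, limma adjusted p = 0.0262). No capture value of either gene reached a RiboMinus value. TUBB made up 67.2% and 66.4% of the pair in RiboMinus, against 66.7%, 59.7% and 60.8% in Wt NAD-Capture, ranges that overlap.

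**Figure D2:**
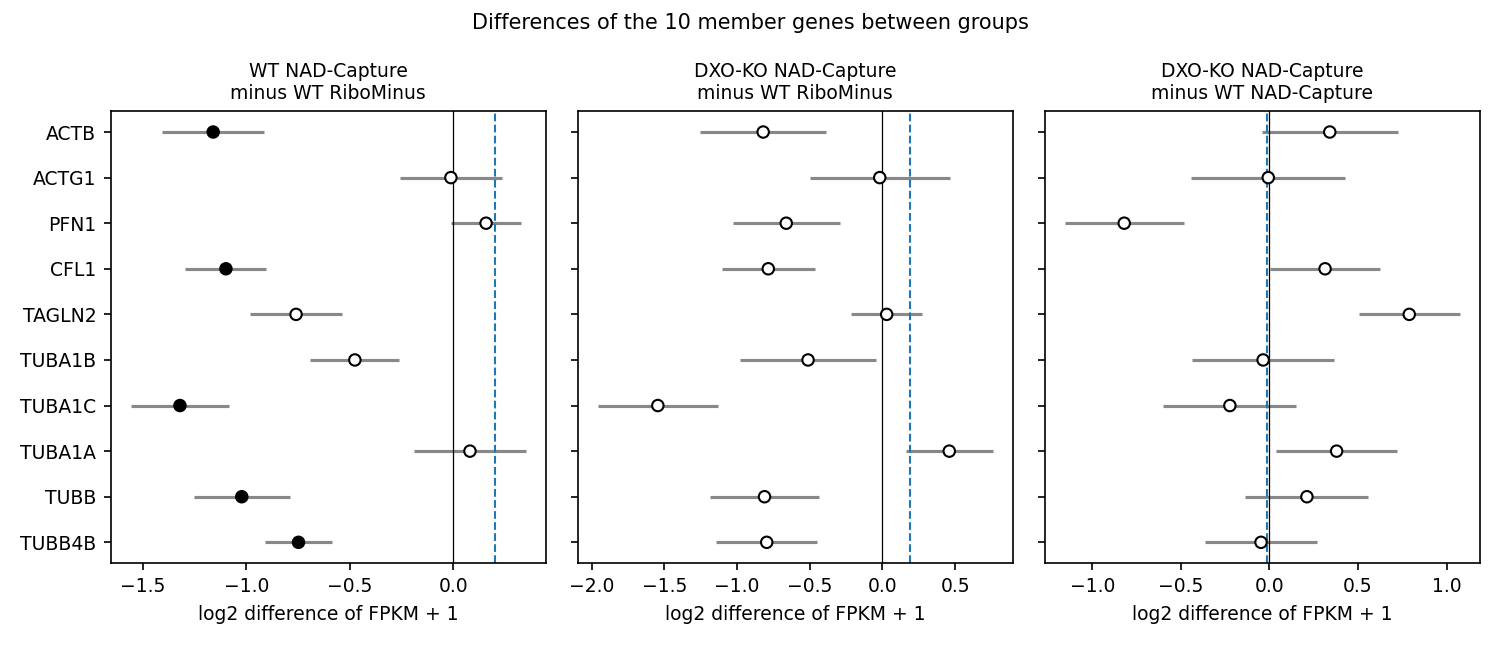
Log2 difference of FPKM + 1 between groups for each member (points, filled where limma's adjusted p was below 0.05) with its standard error (grey bar); the dashed line is the median of all genes tested, and DXO-KO stands for libraries carrying that label. Filled points are limited to 5 members, all left of 0, in the first panel.

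Without either RiboMinus replicate none of the 5 passed, and calls over all genes dropped from 4126 to 19 (without replicate 1) and 18 (without replicate 2); the log2 differences of the 5 then lay between -0.73 and -1.41. The summed FPKM of the libraries also differed, from 541482 and 544947 in RiboMinus to between 1148707 and 8558867 after capture. Centring each library on its median gene shifted the median of all genes from 0.20 to -0.25. It took the share of all genes called from 24.5% to 30.7%, and the share of calls that were higher from 67.5% to 42.6%. More of all genes were thus called lower, and 7 members were. Under that centring PFN1 (-0.30) and TUBA1A (-0.38) changed sign without passing the test. With all 8 libraries in one fit CFL1 alone passed, and 15.4% of all genes were called. TUBB missed the threshold without Wt NAD-Capture replicate 2 or 3. The members' summed FPKM was 1.55% and 1.52% of that of protein-coding genes in RiboMinus, between 0.724% and 0.792% in Wt NAD-Capture and between 0.683% and 0.805% under the DXO-KO label.

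The comparison of DXO-KO-labelled NAD-Capture with RiboMinus uses the same RiboMinus libraries as the one above, and its values stand beside it, not as support. None of the 10 members was called, against 3.12% of 14946 genes, and 1 member, TUBA1C, had an unadjusted p below 0.05, against 21.1% of genes. Ranges did not overlap, with capture below, for 6 members, against 20.4% of genes. The median log2 difference was -0.72 for the members and 0.19 for all genes. Genes with a mean of at least 10 FPKM had a median of -0.07, with 7 members below it. TUBA1C was 63.7, 109 and 155 FPKM under the DXO-KO label, below both RiboMinus values (log2 -1.54 ± 0.41 SE, limma adjusted p = 0.111). ACTB was 406, 716 and 773 FPKM (log2 -0.82 ± 0.43 SE, limma adjusted p = 0.354) and CFL1 172, 213 and 295 (log2 -0.79 ± 0.32 SE, limma adjusted p = 0.243). TUBB was 281, 484 and 463 FPKM, TUBB4B 137, 231 and 251, and PFN1 96.9, 158 and 204, each below its RiboMinus values in all 3 libraries. TUBA1B, at 351, 674 and 795 FPKM, ACTG1, at 924, 1612 and 1489, and TUBA1A, at 29.5, 50.3 and 43.5, overlapped with RiboMinus. TAGLN2 did too in FPKM, at 95.8, 96.1 and 127. With length not divided out all 3 libraries lay below RiboMinus, which depends on the GENCODE length taken for its transcript. Replicate 1 was the lowest of the 3 libraries for all 10 members; it was also the deepest, at 803590 fragments against 137586 and 80492. The part of depth in that was not tested. Quantile normalization called 8 members lower, where 5.35% of all genes were called. Equal summed protein-coding FPKM called 2, where 2.01% of all genes were called, against 3.12% as designed. Without RiboMinus replicate 1 or 2 the members' median log2 difference was -0.70 or -0.74. Calls over all genes fell from 466 to 9 without DXO-KO-labelled replicate 2. They rose to 1207 and 1438 without DXO-KO-labelled replicate 1 or 3, and centring took the share of calls that were higher from 73.4% to 55.7%.

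Between the 2 NAD-Capture groups, which share kit and enrichment, no member was called. Calls were rare among all 17594 genes (0.0341%, or 6 genes), and 2 members had an unadjusted p below 0.05, against 16.6% of genes. PFN1 was 96.9, 158 and 204 FPKM under the DXO-KO label and 267, 274 and 236 in Wt. Its groups did not overlap (lower; 11.5% of all genes), with a log2 difference of -0.82 ± 0.34 (SE; limma adjusted p = 0.283). TAGLN2 was 95.8, 96.1 and 127 FPKM under the DXO-KO label and 51.9, 75.3 and 56.7 in Wt. Its groups did not overlap either (higher; 11.8% of all genes), with a log2 difference of 0.79 ± 0.29 (SE; limma adjusted p = 0.237). The other 8 members overlapped, with log2 differences between -0.22 for TUBA1C and 0.38 for TUBA1A. The members' median was 0.10 and that of all genes -0.01. Genes with a mean of at least 10 FPKM had a median of 0.27, above that of the members. Without DXO-KO-labelled replicate 1 the members' median was 0.39. ACTG1 (0.24), TUBA1B (0.32), TUBA1C (0.12) and TUBB4B (0.22), negative with all libraries, were then positive.

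**Figure D3:**
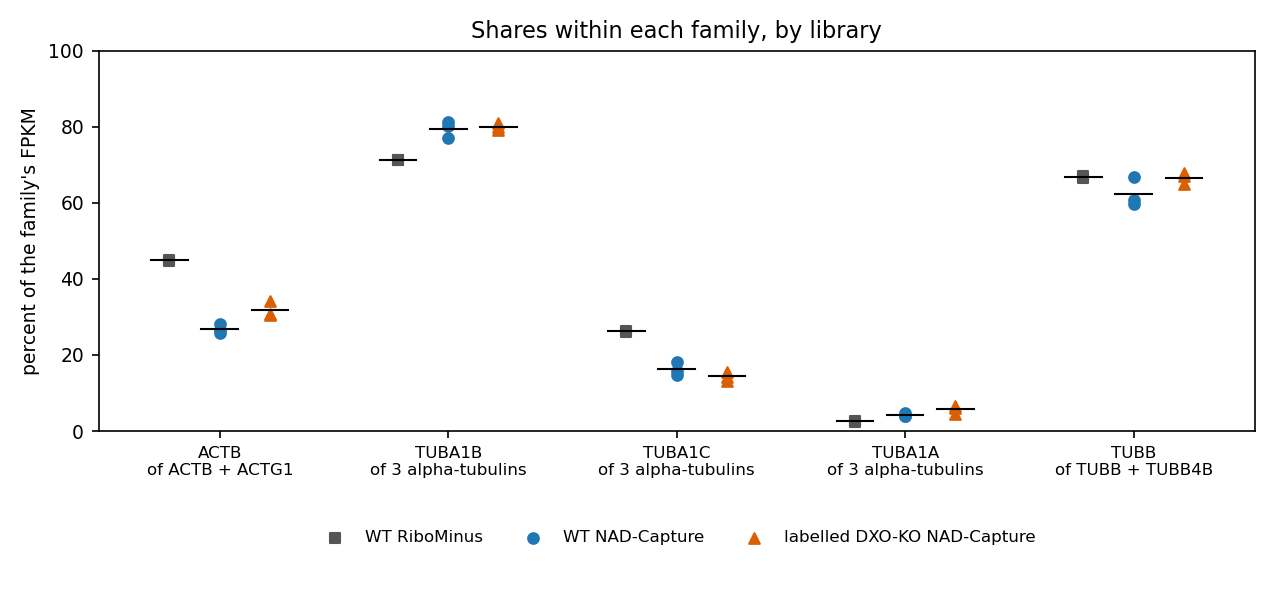
Share of each gene in the FPKM of its family (percent), 1 point per library and a black bar at each group's mean; squares are WT RiboMinus, circles WT NAD-Capture, triangles NAD-Capture labelled DXO-KO. ACTB and TUBA1C take a smaller share after capture, at 25.7% to 34.2% and 13.1% to 18.2%, than in RiboMinus, at 44.8% to 44.9% and 26.1% to 26.4%, and the share of TUBB overlaps.

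At the level of single transcripts, 16 of the 75 member rows passed the filter of 1 FPKM in the Wt comparison. Of these, 2 were higher and 5 lower after capture, against 12.6% and 13.1% of 24777 rows tested. In the comparison of the DXO-KO label with RiboMinus 2 were higher and 2 lower of 14 rows, against 4.41% and 9.63%. Between the NAD-Capture groups none of 15 rows was called (0.032% of all rows), and 1 had an unadjusted p below 0.05 (9.17% of all rows). Without either RiboMinus replicate 3 rows of the Wt comparison were called. Both higher rows were alternative transcripts of ACTG1 and TAGLN2, which passed the filter through the captured libraries alone. Of the lower rows, NM_003564 of TAGLN2 passed it through RiboMinus alone. So did NM_001293215_2 of TUBB, called lower under the DXO-KO label. The row counts include these rows and are not read as a result about the members.

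The coding ACTG1 transcript NM_001614 was 1308 and 1330.4 FPKM with RiboMinus, then 1379, 1107 and 696 after Wt NAD-Capture, and 552, 1103 and 1098 under the DXO-KO label. The non-coding ACTG1 transcript NR_037688 was listed at 0 in both RiboMinus libraries, at 121, 356 and 329 FPKM in Wt NAD-Capture and at 372, 509.8 and 392 under the DXO-KO label. It took between 8.04% and 40.3% of the gene's FPKM in the 6 captured libraries. The row passed the filter of 1 FPKM through the captured libraries alone. Its calls in both comparisons with RiboMinus (limma adjusted p = 0.00279 and 0.00963) are therefore not read as support for a change. No fold is given against a group listed at 0. GENCODE pairs both accessions with 1 and the same transcript, so how reads were divided between them is uncertain. NM_001614 itself had a log2 difference of -0.37 in Wt (limma adjusted p = 0.511) and -0.59 under the DXO-KO label (limma adjusted p = 0.468). With NM_001614 alone standing for ACTG1, the share of ACTB in the actin pair was between 27.3% and 34.8% in Wt NAD-Capture and between 39.4% and 42.4% under the DXO-KO label.

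TAGLN2 was assigned to different transcripts before and after capture. Lengths below are those of the paired GENCODE transcripts. NM_003564, of 1604 nt, was 107 and 98.4 FPKM in RiboMinus and at or below 0.00396 in all 6 captured libraries, less than 1 fragment. NM_001277223, of 709 nt, was 0.00936 and 0.00583 FPKM in RiboMinus, also less than 1 fragment, and 51.9, 75.3 and 38.1 in Wt NAD-Capture and 95.8, 96.1 and 127 under the DXO-KO label. The remaining accession, NM_001277224, of 1603 nt, was 1.16 and 0.464 FPKM in RiboMinus, 18.6 in Wt NAD-Capture replicate 3 (32.8% of the gene there) and listed at 0 in the other 5 libraries. The rows of NM_003564 and NM_001277223 were called in both comparisons with RiboMinus. Their limma adjusted p was 0.00216 and 0.00243 in Wt and 0.00963 for each under the DXO-KO label. Each row passed the filter only through the group where it is high, and both mirror the same switch of assignment. These calls are therefore not read as support for a change. In GENCODE (GRCh38) the transcripts paired with these accessions share exons 2 to 4. The paired transcripts differ in the first exon and in the last, 835 nt long for NM_003564 and 165 nt for NM_001277223. Whether the authors' RefSeq annotation had the same exons is not given in the sources used here. FPKM divides by transcript length, so the same fragments give a larger FPKM on the shorter transcript. With length not divided out, as FPKM times the effective length in kilobases from GENCODE, TAGLN2 was 151 and 139 in RiboMinus. It was 26.4, 38.3 and 45.5 in Wt NAD-Capture and 48.8, 48.9 and 64.6 under the DXO-KO label. All were below RiboMinus, but only if the deposited FPKM was divided by a length near 709 nt. A longer NM_001277223 in the authors' annotation would raise the captured values and change the differences that follow. On that scale the log2 difference under the DXO-KO label turned from 0.03 to -1.42 (limma adjusted p = 0.05004, just above the threshold), and that between the NAD-Capture groups was 0.57 (limma adjusted p = 0.511). For the other 9 members no direction or call changed on that scale. The RefSeq start windows matched by position to the first exons of NM_003564 (the first line) and NM_001277223 (the second) follow, start base in capitals. Both are on the minus strand. The first start base, 159925507, lies inside the GENCODE first exon of NM_003564 (159925450 to 159925732). The second, 159924595, lies upstream of that of NM_001277223 (159924494 to 159924551).
TAGLN2, chr1:159925498-159925547: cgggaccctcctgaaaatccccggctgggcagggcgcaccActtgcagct
TAGLN2, chr1:159924586-159924635: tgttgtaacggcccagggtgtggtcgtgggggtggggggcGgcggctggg

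The 7 TUBB accessions stood on 56 rows, since the table lists copies of each accession under a copy number with no position, and 5 rows were above 0. NM_178014 carried 75.8% and 78.7% of TUBB in RiboMinus, between 53.1% and 100% in Wt NAD-Capture and between 23.4% and 100% under the DXO-KO label. NM_001293214 carried 21.4% and 18.4% in RiboMinus, and 76.6% in DXO-KO-labelled replicate 2. These accessions share a GENCODE transcript and the division between them is uncertain, so TUBB is described by its sum. The copy NM_001293215_2 was at 18.0 and 17.8 FPKM in RiboMinus and listed at 0 in all 3 libraries of the DXO-KO label. It passed the filter there through RiboMinus alone, so its call as lower (limma adjusted p = 0.00963) is not read as support for a change. ACTB, CFL1, PFN1, TUBA1B and TUBB4B each had 1 row and no isoform split.

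**Figure D4:**
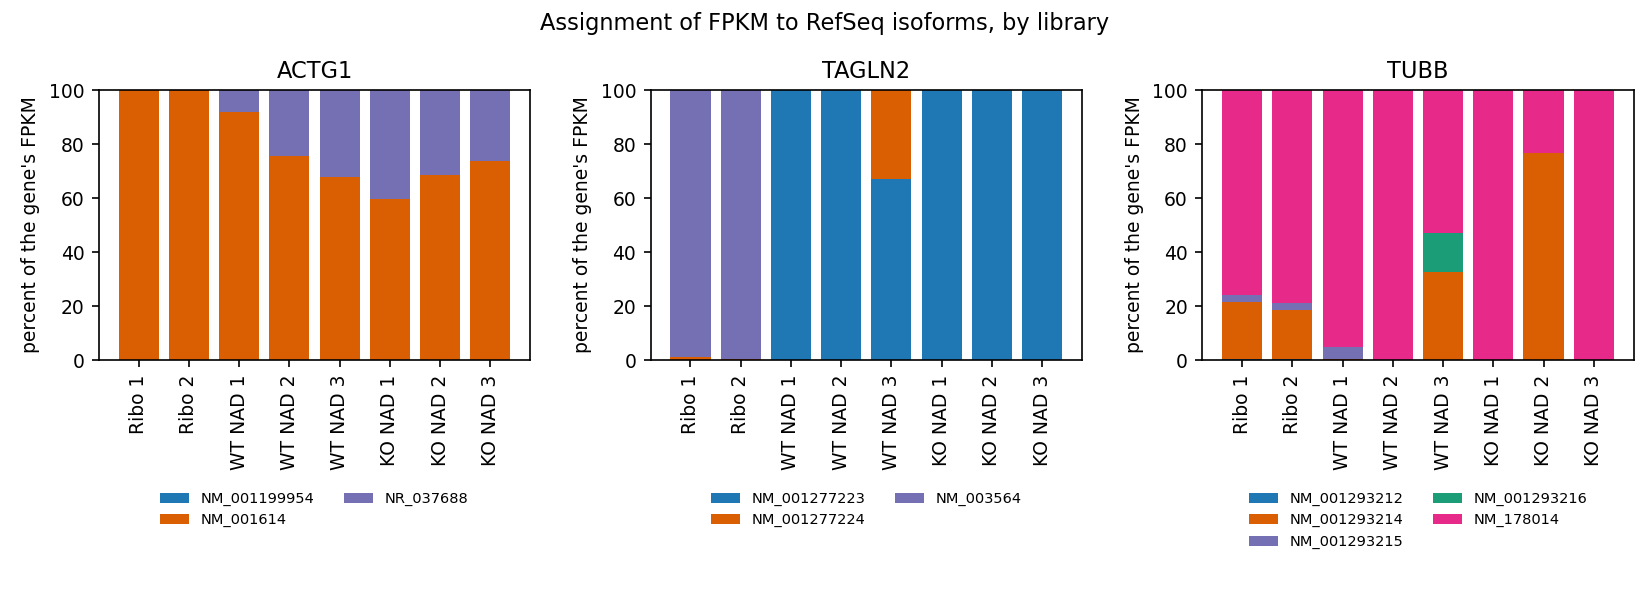
Percent of each gene's FPKM assigned to each RefSeq accession, 1 stacked bar per library (Ribo, WT RiboMinus; WT NAD, WT NAD-Capture; KO NAD, NAD-Capture labelled DXO-KO). For TAGLN2 the bars change from NM_003564 in RiboMinus to NM_001277223 after capture, with 32.8% on NM_001277224 in Wt NAD-Capture replicate 3, and for ACTG1 NR_037688 appears in the captured libraries alone.

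Further genes of the 2 cytoskeletal systems were read from 6 lists, in the Wt comparison first. There 16.5% of all genes tested were higher and 7.94% lower. The median log2 difference was 0.20 for all genes and -0.34 for those with a mean of at least 10 FPKM. Of 25 other actin-binding genes, 1 was higher and 8 lower (median log2 -0.46). TMSB10, a thymosin that binds actin monomers, rose from a mean of 618 to 3210 FPKM (log2 2.36, limma adjusted p = 0.00363). VCL, vinculin of cell adhesions, fell from 45.1 to 12.2 (log2 -1.82, limma adjusted p = 0.00726) and WDR1, a cofilin partner, from 44.9 to 11.3 (log2 -2.01, limma adjusted p = 0.0290). Of 14 other tubulins tested of 16, 3 were higher and none lower (median -0.20). TUBB4A rose from 2.37 to 23.9 FPKM (log2 2.87, limma adjusted p = 0.00370) and TUBA4A from 1.35 to 10.7 (log2 2.27, limma adjusted p = 0.0121). Of 15 tubulin-folding and microtubule-binding genes, 1 was higher and 2 lower (median -0.44). DYNC1H1, the heavy chain of cytoplasmic dynein, fell from 89.0 to 17.4 FPKM (log2 -2.30, limma adjusted p = 0.00273). Of the 9 Arp2/3 complex genes, 1 was higher and 1 lower (median -0.20), and none of the 5 cofilin, profilin and transgelin paralogs or of the 2 other actins tested was called.

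In the DXO-KO-labelled comparison with RiboMinus, ACTA2, smooth-muscle actin (mean 1.13 to 18.5 FPKM, log2 3.09, limma adjusted p = 0.0480) and TUBB4A (2.37 to 24.2 FPKM, log2 2.86, limma adjusted p = 0.0303) were the only calls in these 6 lists, against 3.12% of all genes. With length not divided out ACTA2 was not called (log2 0.93, limma adjusted p = 0.738). Between the NAD-Capture groups there was none. The difference was positive there for 8723 of all 17594 genes (median -0.01), and the median of genes with a mean of at least 10 FPKM was 0.27. In the lists it was positive for 21 of 25 other actin-binding genes (median 0.57) and 8 of 9 Arp2/3 genes (0.69). So it was for 12 of 15 tubulin-folding and microtubule-binding genes (0.61). It was positive for 7 of 15 other tubulins (-0.01), 2 of 4 cofilin, profilin and transgelin paralogs (0.32) and 1 of 3 other actins (-0.28). Low members of these lists rest on few fragments after capture.

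ACTB and TUBA1B were also compared with every other gene of at least 10 FPKM on average, by Pearson correlation of log2(FPKM + 1) over the 8 libraries. The genes most like ACTB were UBE2E3 (r = 0.985), EMC10 (0.978), COX5A (0.977), PRDX6 (0.975) and ATP5F1B (0.973). Those most like TUBA1B were EDARADD (r = 0.985), SNHG16 (0.967), SEC23A (0.965), MRPS18B (0.959) and ALG8 (0.958). The 8 points share the division into RiboMinus and captured libraries and its difference in depth, so these are descriptions with no test. Across the 10 members, the log2 difference in Wt cells had r = -0.39 (Spearman's rho = -0.26) with the length of the main transcript, a description over genes that share libraries.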

How the data were processed

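RNA of HEK293T cells was measured in 8 libraries, grouped by their titles. The authors deposited FPKM values per RefSeq transcript; per the submitters' processing notes, TopHat2 2.1.1, Bowtie2 2.2.8.0, Cuffdiff and hg19 were used, and counting options and scaling between libraries are not given in the sources used here. All members, gene lists and rules were chosen with earlier results of these data known. RefSeq (GRCh38.p14) paired 52028 of 53216 rows (97.8%) with 25695 symbols. Numbered copies of an accession (3309 rows) were first unpaired, which left TUBB at 0; they were then assigned to the accession's gene. FPKM was summed per symbol. Lengths and exons came from GENCODE v29, sequences from RefSeq, and no coordinate of the hg19 files was used. The transcript lengths that the deposited FPKM was divided by are not given in the sources used here.

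The model was lmFit followed by eBayes with a mean-variance trend (limma 3.58.1, R 4.3.3), on log2(FPKM + 1), which understates the change of low genes, two-sided, in the libraries of the 2 groups compared. All genes, or transcript rows, with a mean of at least 1 FPKM entered, with Benjamini-Hochberg adjustment over all of them and a threshold of 0.05. Every member and DXO were named, and of the wider lists at most 3 genes a direction with the largest called change and no library at 0. Depth was read from FPKM times effective length (length minus 200 nt) of 7076 single-transcript genes, and covers counting error only. The shares and list counts have no test. The test was tried on simulated data with 200 changed genes of at least 50 FPKM, with noise from limma's moderated variance, equal in both groups, although the RiboMinus spread was smaller. At gene level in the Wt comparison it recovered 2.99%, 62.7% and 83.3% of log2 changes of 1, 2 and 3, called 0.0509% of unchanged genes, and estimated median changes of 0.96, 1.99 and 2.97 among 15917 genes. For the DXO-KO label against RiboMinus it recovered 0, 34.3% and 66.7% among 14148 genes. The 200 changed genes are far fewer than those called in the data, so the adjusted threshold differs and these rates do not carry over to the members. An initial design took noise from each gene's own spread and its successor from expression bins within each group; both made fewer calls, the latter almost none, so the recovery given is the most favourable of those tried. Alternatives covered pseudocount, filter, scaling, the libraries in the fit, a replicate block and each replicate left out; 2 more, equal summed protein-coding FPKM and length not divided out (FPKM times effective length, summed per gene), were added after seeing the data.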

Additional observations from a re-analysis of the deposited data

How the results depend on the processing

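Beside each count of members called, the share of all genes (or rows) called in that setting is given in parentheses. In the Wt comparison with RiboMinus, 5 member genes were called lower as designed (24.5%). They became 7 under centring on the median gene (30.7%), quantile normalization (14.1%) and equal summed protein-coding FPKM (31.3%), the last chosen after seeing the data. They became 6 with a minimum mean of 10 FPKM (34.1%) and 6 with length not divided out (26.1%). The latter added TAGLN2 and was also chosen after seeing the data. All 8 libraries in one fit left 1, CFL1 (15.4%), and the replicate block left 0, with 0 calls over all genes. Leaving out replicates gave 0 to 5. Calls over all genes there were 4126 of 16859 tested as designed. They were 2374 (quantile) and 2602 (one fit) of the same number tested. With the minimum of 10 FPKM they were 2341 of 6858, fewer calls but a larger share. At transcript level 7 became 11 (quantile), 4 (one fit), 0 (replicate block) and 3 to 8 (replicates left out). For the DXO-KO label against RiboMinus, 0 member genes (3.12%) became 8 with quantile normalization (5.35%) and 2 with equal protein-coding FPKM (2.01%). The 4 transcripts called there (14.0% of all rows) became 7 without a filter (13.3%) and 11 with quantile normalization (10.3%). They became 11 with equal protein-coding FPKM (15.0%) and 0 with the replicate block (0%). Calls over all genes there went from 466 to 66 without a filter, 799 (quantile), 853 (one fit), 305 (equal protein-coding FPKM), 0 (replicate block) and 0 to 1438 (replicates left out). Between the NAD-Capture groups no alternative called a member; over all genes 6 calls became 439 in one fit and 4 to 28 in the other settings. Over all transcripts, 6363 Wt calls became 3962 in one fit, and the higher share of calls went from 49.0% to 35.8% with centring. The cause was not tested.

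Replicate numbers come from titles only. Deviations of same-numbered libraries correlated between -0.04 and 0.02 at gene level. These values cannot decide whether the numbers pair the samples. The deviations of the RiboMinus libraries mirror each other, and the captured libraries rest on far fewer fragments. Against RiboMinus, the block adds replicate terms to a fit of few libraries, which leaves little residual spread to test with. No RiboMinus library is numbered 3, so captured replicate 3 adds nothing to the blocked difference. Losing calls under the replicate block is therefore not read as a weaker effect.

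Of the members' differences, 31 changed sign, all of them uncalled. In the Wt comparison PFN1 (0.16) was -0.30 (centring), -0.33 (quantile) and -0.28 (equal protein-coding FPKM); TUBA1A (0.08) was -0.38 (centring), -0.35 (equal protein-coding FPKM) and -0.091 to 0.27 with a replicate left out; ACTG1 (-0.01) was 0.16 (replicate block) and -0.11 to 0.16 with a replicate left out. For the DXO-KO label against RiboMinus TAGLN2 (0.03) was -0.20 (centring), -0.11 (quantile), -0.10 (replicate block), -0.46 (equal protein-coding FPKM), -1.42 (length not divided out) and -0.10 to 0.097 with a replicate left out; TUBA1A was -0.020 (equal protein-coding FPKM) and ACTG1 -0.17 to 0.23 with a replicate left out. Between the NAD-Capture groups centring gave ACTG1 0.12, TUBA1B 0.087 and TUBB4B 0.075, and quantile normalization ACTB -0.024, CFL1 -0.0071 and TUBB -0.095. With a replicate left out ACTG1 ranged from -0.18 to 0.24, TUBA1B from -0.27 to 0.32, TUBA1C from -0.52 to 0.12 and TUBB4B from -0.21 to 0.22. With the main isoform alone the share of ACTB was 32.1% and 41.0% in the 2 capture groups, and that of TUBB 60.9%, 56.8% and 55.0%.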
